A study of Mus musculus with 2 samples.

Results

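Nkx2-1 ventral progenitors of the septal explants are neural progenitor cells that held Nkx2-1 transcripts and few transcripts of the marker genes of neighbouring progenitor territories. They were chosen cell by cell in 1 droplet library, in which each captured transcript carries a unique molecular identifier (UMI). A cell had to have under 4% of its UMIs from mitochondrial genes, more UMIs of 7 apical progenitor genes (Sox2, Hes1, Hes5, Vim, Nes, Fabp7 and Slc1a3, summed as A) than of 6 neuronal genes (Tubb3, Stmn2, Dcx, Elavl3, Gap43 and Mapt, summed as N), at least 1 Nkx2-1 UMI, at most 2 UMIs of Fgf8 and Fgf17 together, at most 1 of Dlx1 and Dlx2 together, and 0 of Emx1. The rule kept 196 cells. They were 5.15% of the 3807 progenitors with A over N (exact Clopper-Pearson 95% interval 4.47 to 5.90%), out of 5827 cells in the library and 20110 in both libraries of the study.

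The study asks how the transcription factor Dbx1 and the adhesion molecule Pcdh8 act in the developing cerebral cortex, and this library surveys its septal territory. The explants held the septum of 8 E11.5 PGKCre;Rosa26YFP embryos from 2 litters, in which a Cre recombinase under a ubiquitously active promoter switches on YFP in principle everywhere, and of 4 E12.5 Dbx1Cre;Rosa26tdTomato embryos from 2 litters, in which tdTomato marks cells that express or once expressed Dbx1. The labels call all of them wild-type (C57BL/6J), and they were pooled before 1 library was made with kit version 2 from about 10000 cells. A telencephalic vesicle library of 3 wild-type embryos from 2 litters (labelled E12, and E11.5 to E12 in the methods) (kit version 3.1, about 20000 cells, 14283 barcodes) served as a second place to apply the same rule. Embryos cannot be told apart within a library, and age, Cre line and reporter go together in the explants, so that their parts cannot be told apart.

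The library held 83103280 UMIs, with a median of 12722 per cell (lowest 3902, highest 84281), and 5649 cells had under 4% mitochondrial UMIs. The 196 cells held 2641510 UMIs, with a median of 12209 per cell (4142 to 57173), 3567.5 genes per cell and a mitochondrial share of 2.08%. The 3611 other progenitors with A over N held 56354469 UMIs with a median of 14108 per cell, so that the Nkx2-1 cells were the shallower group. Only 1 cell barcode was shared between the libraries. With 1 library and no replicate, nothing was tested: levels are CPM (UMIs of a gene per 1000000 UMIs of the summed cells), given as ratios between groups of the same library, and every interval is an exact 95% interval that covers counting error only (Poisson for levels and their ratios, Clopper-Pearson for shares of cells).

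Nkx2-1 is a homeodomain factor of the ventral forebrain, where it is needed for the medial ganglionic eminence and the preoptic area. Its expression there depends on Sonic hedgehog, a secreted ligand that binds the receptor Ptch1, releases Smo and turns on the Gli factors, whose targets include Gli1 and Ptch1 themselves. Progenitors of the pallium lie on the other side of this dorsoventral division and are marked by Pax6, Emx and Dmrt factors, while the rostral midline is a source of Fgf8 and Fgf17.

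What the rule used is a description and no finding. The cells held 1 to 27 Nkx2-1 UMIs with a median of 5, A was 6 to 240 with a median of 45, and N was 1 to 26 with a median of 8. Of 474 progenitors with at least 1 Nkx2-1 UMI, 278 were left out, 181 of them for Fgf8 and Fgf17, 116 for Emx1 and 29 for Dlx1 and Dlx2, with 47 left out for more than 1 reason. Just inside the limits lay 26 cells with 1 Nkx2-1 UMI, 24 with 2 UMIs of Fgf8 and Fgf17, and 21 with 1 UMI of Dlx1 and Dlx2. Just outside lay 775 cells that met every other limit with 0 Nkx2-1 UMIs, 16 with 3 UMIs of Fgf8 and Fgf17, 3 with 2 UMIs of Dlx1 and Dlx2, and 40 with 1 Emx1 UMI. The difference A minus N was 1 to 10 in 22 of the cells, and 8 further cells were left out with A equal to N or up to 9 UMIs below it.

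The name ventral progenitor was checked on Olig2 and Slit2, which the rule did not use. Olig2, a bHLH factor of ventral progenitors (chromosome 16, 91225457 to 91228677, plus strand, mm10), was found in 142 of the 196 cells (72.4%, interval 65.6 to 78.6%), in 23.2% of the other progenitors and in 2.65% of 151 non-neural cells that served as a measure of free RNA. Those reference cells were deeper, with a median of 22364 UMIs, and were defined after the data were seen as cells with over 20% globin UMIs or at least 5 UMIs of mesenchyme, endothelium and macrophage markers. Slit2, a secreted axon repellent (chromosome 5, 47983138 to 48307733, plus strand), was found in 40.3% of the cells, 30.8% of the other progenitors and 16.6% of the reference, whose mesenchyme may itself express Slit2. After each cell was thinned to 7500 UMIs, which left out 13 of the cells and 327 others, the shares were 63.4 and 15.3% for Olig2 and 31.69 and 19.98% for Slit2. Slit2 did not set the cells apart from their closest neighbours: it was found in 52.3% of 1006 progenitors with over 2 UMIs of Fgf8 and Fgf17 and no Nkx2-1 (37.1% after thinning) and in 58.3% of the 278 Nkx2-1 progenitors that the rule left out (40.6% after thinning). Olig2 was found in 28.7% and 49.6% of these, and in 44.5% of 283 progenitors with Gsx2 and without Nkx2-1 (31.2% after thinning). Olig2 and Slit2 were found together in 69 of the 196 cells, and neither was found in 44.

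Among 9922 genes with at least 10 UMIs expected in the 196 cells, 101 were at least 2-fold higher than in the other progenitors (1.02%) and 332 at least 2-fold lower (3.35%). The median log2 ratio over all of them was 0.02. Since every gene of the same cells bears on how they were chosen, these counts set a scale for the lists below and are not evidence for the group. The plot of ratio against level shows that most genes lay close to equality, and that pallial, Wnt and hedgehog co-receptor genes were among those with the lowest ratios above 10 CPM, together with the globin gene Hbb-bs.

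**Figure D1:**
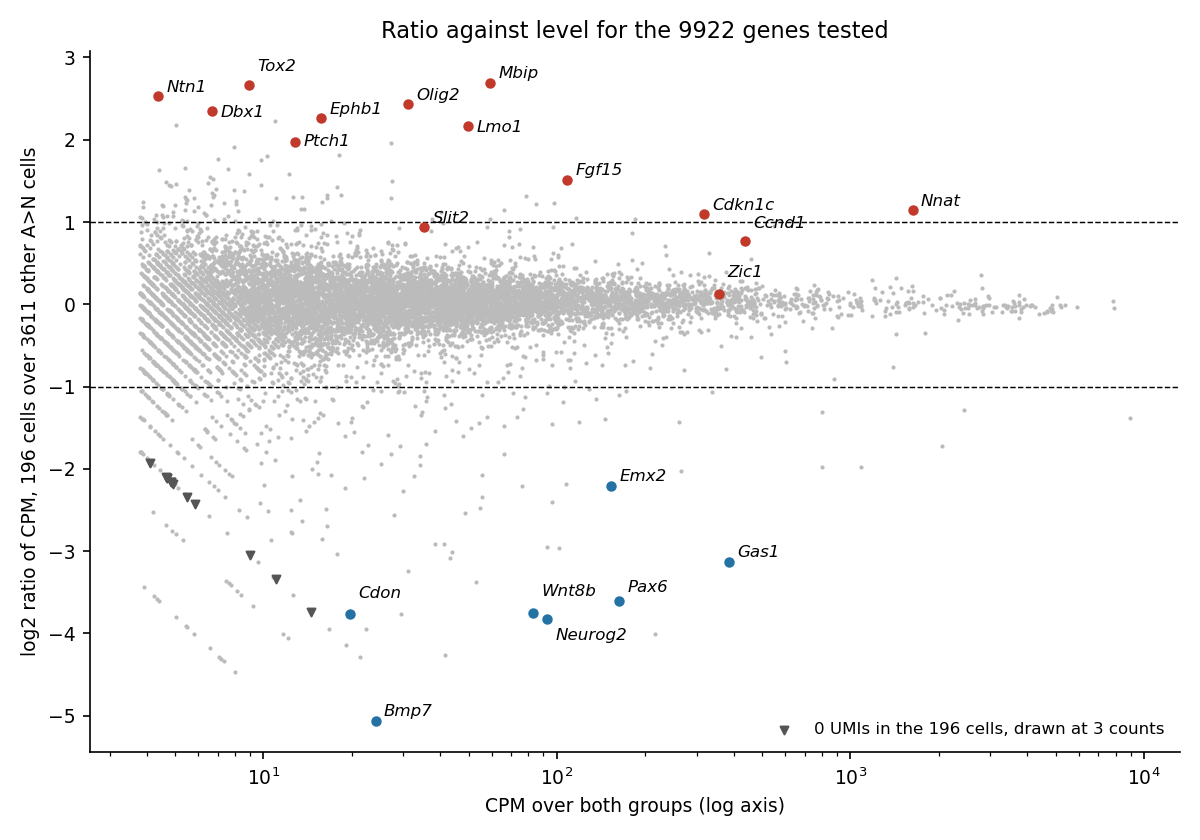
Each point is 1 of the 9922 genes tested, with its CPM over both groups on a log x axis and the log2 ratio of CPM in the 196 cells over the 3611 other progenitors (A>N cells) on the y axis. Dashed lines mark 2-fold, red and blue points are named genes above and below equality, triangles are genes with 0 UMIs in the 196 cells drawn at 3 counts, and Mbip at a ratio of 6.47 and Gas1 at 0.114 stand far from the cloud at their levels.

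Apart from Nkx2-1, the gene with the interval farthest above equality among those with at least 10 UMIs expected was Mbip. Its product is an inhibitory binding protein of a MAP kinase kinase kinase. Mbip reached 308 CPM in the 196 cells and 47.6 CPM in the other progenitors, a ratio of 6.47 (interval 5.975 to 7.001). A UMI of Mbip was found in 92.3% of the cells, up to 22 in 1 cell, against 42.8% of the other progenitors and 21.9% of the reference, and after thinning in 84.7% and 27.8%. Of the 278 Nkx2-1 progenitors that the rule left out, 79.1% held it (67.2% after thinning). Mbip lies beside Nkx2-1, on the same strand of the same chromosome. In the GENCODE M21 annotation of GRCm38 (mm10), Nkx2-1 spans chromosome 12 from 56531958 to 56536908 and Mbip from 56328303 to 56345894, both on the minus strand, 186 kb apart. Of 23 genes annotated within 500 kb of Nkx2-1, 7 were in the gene list and 2, Nkx2-1 and Mbip, were measured. Nkx2-9, a related homeobox gene in the same interval, had 8 UMIs in the cells and 18 in the other progenitors, a ratio of 9.48 (3.57 to 22.9) from very few counts. Slc25a21, also within 500 kb, lay on the other side, with 1 UMI against 97. Its ratio was 0.220 (0.00551 to 1.25), with an interval that held equality. This neighbourhood was looked at after the ratio of Mbip had been seen.

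Nkx2-1 was high by the rule and Mbip lay beside it, and the promoters of both are shown. They run from 250 bases before to 50 bases after the start of each gene, 5′ to 3′ on the minus strand, as given by RefSeq for GRCm38.p6. Capitals mark a match to CACTTNA, a core recognised by NK2-class homeodomains, searched on both strands.
Nkx2-1 (chr12:56536859-56537158): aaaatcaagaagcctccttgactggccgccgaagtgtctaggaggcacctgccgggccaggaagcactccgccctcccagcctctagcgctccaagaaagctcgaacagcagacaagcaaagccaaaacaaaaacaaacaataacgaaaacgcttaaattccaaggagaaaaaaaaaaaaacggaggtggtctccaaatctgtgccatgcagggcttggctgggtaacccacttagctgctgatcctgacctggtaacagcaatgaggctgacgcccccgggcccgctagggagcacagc
Mbip (chr12:56345845-56346144): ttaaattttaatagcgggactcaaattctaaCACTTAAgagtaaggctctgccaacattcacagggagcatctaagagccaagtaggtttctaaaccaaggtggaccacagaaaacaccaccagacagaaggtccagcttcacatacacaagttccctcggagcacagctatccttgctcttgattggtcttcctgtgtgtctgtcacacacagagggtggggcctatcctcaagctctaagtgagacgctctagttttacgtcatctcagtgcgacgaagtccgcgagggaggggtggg
The Mbip promoter held 1 match, at position -219 relative to the start of the gene, and the Nkx2-1 promoter 0. Of 32851 promoters of the same length, 11.54% held a match. A match is a run of letters and no measure of binding.

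Other genes named for their high ratios were regulators of transcription and secreted or surface molecules, among others. Tox2, an HMG-box factor, was at 45.4 CPM against 7.19 (ratio 6.32, 5.11 to 7.77) and was found in 40.3% of the cells, 9.28% of the other progenitors and 2.65% of the reference. The 278 Nkx2-1 progenitors that the rule left out held Tox2 in 34.2% of cells. Lmo1, a LIM-domain cofactor, was at 193 CPM against 43.0 (ratio 4.496, 4.079 to 4.948). Olig2 was at 140 CPM against 25.996 (ratio 5.39, 4.79 to 6.04) and its neighbour Olig1 at 57.2 against 16.3 (ratio 3.51, 2.93 to 4.17). Secreted and surface molecules among the same genes were the guidance cue Ntn1 (ratio 5.78, 4.21 to 7.82), the receptor tyrosine kinase Ephb1 (4.78, 4.03 to 5.66), the small peptide ligand Apela (4.69, 3.80 to 5.74) and the phosphatidylserine-binding protein Anxa5 (3.91, 3.40 to 4.47). The ligands Fgf3 and Fgf15 had ratios of 4.53 and 2.86. The 15 genes named from the high end were completed by Dbx1, Ptch1, Fndc3c1 and Gse1, with ratios of 5.10, 3.93, 3.76 and 3.48.

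The hedgehog genes fell into ligand and targets on one side and co-receptors on the other. Shh had 20 UMIs in 8 of the 196 cells (4.08%, interval 1.78 to 7.88%) and 21 UMIs in the 3611 other progenitors, where 9 cells held it (0.249%). The ratio of levels was 20.3 (10.4 to 39.4), below the 10 expected UMIs that a measured gene needed. Of those 9 cells, 8 held Nkx2-1 and had been left out by another limit, and 1 of 3333 progenitors without Nkx2-1 held Shh. A Shh UMI was found in 0 of the 151 reference cells (interval 0 to 2.41%) and in 0 of 1006 progenitors with Fgf8 or Fgf17 and without Nkx2-1 (0 to 0.366%), which limits the share of cells with a UMI and not of cells that express the gene. The members with Shh had at least 3 Nkx2-1 UMIs, with a median of 13.

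Ptch1, the receptor and a transcriptional target of the pathway (chromosome 13, 63508328 to 63573598, minus strand), was at 44.7 CPM against 11.4 (ratio 3.93, 3.20 to 4.79). It was found in 35.7% of the cells, 14.01% of the other progenitors and 12.6% of the reference, and after thinning in 22.4%, 8.31% and 4.90%. The 278 Nkx2-1 progenitors that the rule left out held Ptch1 about as often, in 36.0% of cells (22.3% after thinning). Gli1, the target most often used as a readout of the pathway, was found in 15.3% of the cells, 3.16% of the others and 1.99% of the reference, with a ratio of 5.41 (3.60 to 7.94) from 34 UMIs. It too was below the 10 expected UMIs of a measured gene (7.52 expected). The signal transducer Smo and the inhibitor Sufu had ratios of 1.004 and 1.01, with intervals that held equality.

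The co-receptors that help Shh bind Ptch1 and are known to be expressed away from its source were all low. Gas1 (chromosome 13, 60174405 to 60177365, minus strand) was at 45.8 CPM against 400 (ratio 0.114, 0.0949 to 0.137). Cdon had 4 UMIs in the 196 cells, a ratio of 0.0735 (0.0200 to 0.189), and Boc had 11 UMIs, a ratio of 0.212 (0.106 to 0.381). Gas1 was found in 35.2% of the cells and 82.6% of the other progenitors. The reference held it in 50.3% of cells, but mesenchyme can itself express Gas1, so that this value is no clean measure of free RNA. Gli3, which acts mainly as a repressor, had a ratio of 0.464 (0.361 to 0.588), and Gli2 0.657 (0.419 to 0.985). Of the 8 measured genes of the list, 1 was at least 2-fold higher and 4 at least 2-fold lower, with a median log2 ratio of -0.86 against 0.02 over all genes tested.

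**Figure D2:**
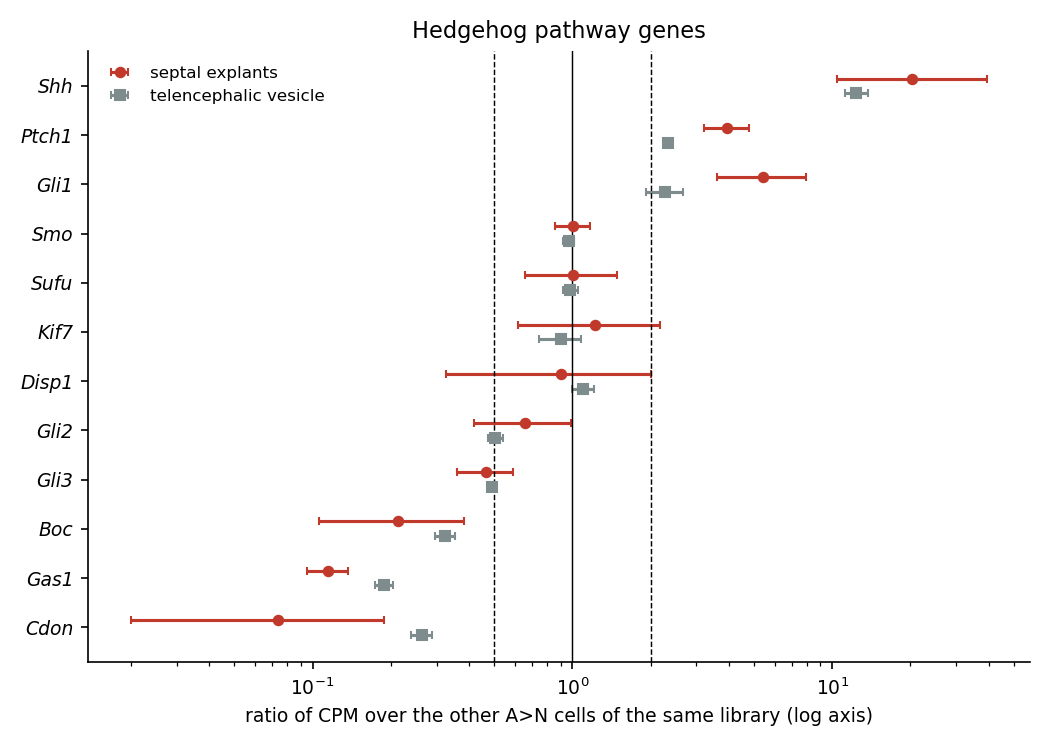
Ratio of CPM in the cells chosen by the rule over the other A>N progenitors of the same library, on a log x axis, for 12 hedgehog pathway genes in the septal explants (red circles) and the telencephalic vesicle (grey squares), with 95% counting intervals. The solid line marks equality and the dashed lines 2-fold, and in both libraries Shh, Ptch1 and Gli1 lay above equality and Gli3, Boc, Gas1 and Cdon below it.

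Pallial selector genes were low nearly throughout. Of 12 measured genes other than Emx1, 0 were at least 2-fold higher and 11 at least 2-fold lower, with a median log2 ratio of -3.10. Pax6, a regulator of pallial progenitors, was at 14.01 CPM against 170 (ratio 0.0824, 0.0580 to 0.114). It was found in 9.69% of the cells, below the 17.2% of the deeper reference cells, so that this share by itself cannot be told from free RNA. At 2 or more UMIs the shares were 3.06% of the cells and 6.62% of the reference. Of the other progenitors, 66.3% held it. The proneural gene Neurog2 had a ratio of 0.0704, and the Dmrt factors Dmrta1, Dmrt3 and Dmrta2 had ratios of 0.0512, 0.0568 and 0.0911. Emx2 (0.217) and Lhx2 (0.371) were less far below equality, at 34.5 and 99.2 CPM. Lhx9 was the gene of the list within 2-fold, with 9 UMIs. Emx1 itself was at 0 by the rule, and the low pallial genes therefore stand beside a limit that removes pallial cells.

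Genes of the cortical hem and of Wnt and BMP signalling were also low. Of 18 measured genes, 1 was at least 2-fold higher and 13 at least 2-fold lower, with a median log2 ratio of -1.93. Among the lowest were the ligand Bmp7 (2 UMIs, ratio 0.0300, 0.00363 to 0.109), the ligand Wnt8b (17 UMIs, ratio 0.0743, 0.0432 to 0.119) and the homeobox gene Msx1 (3 UMIs, ratio 0.0865). Wnt7b (0.118), the Wnt amplifier Rspo3 (0.181) and the Wnt target Axin2 (0.232) lay on the same side, and Bmp4, another ligand, had 0 UMIs in the 196 cells. The exception was Wnt5a, a ligand known for signalling without beta-catenin, at 15.1 CPM against 7.22 (ratio 2.097, 1.476 to 2.905), with a ratio of 1.26 after thinning, 1.91 in cells without YFP and 1.999 in the telencephalic vesicle. The BMP targets Id1 and Id3 stayed within 2-fold, at 0.793 and 0.733.

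Ventral factors did not move as one group. Of 8 measured genes besides Nkx2-1, 2 (Olig1 and Olig2) were at least 2-fold higher and 2, among them the zinc finger factor Sp8 (0.387), at least 2-fold lower, with a median log2 ratio of 0.43. Otx2, a homeobox factor of the anterior brain, was higher by less than 2-fold (1.92, 1.74 to 2.11). Gsx2, a factor of the lateral ganglionic eminence, had a ratio of 0.627 (0.446 to 0.858). Nkx6-2 had 19 UMIs and a ratio of 7.80 (4.35 to 13.4). Lhx8 had 6 UMIs and a ratio of 5.57 (1.85 to 14.1), and both genes were below the expected UMIs of a measured gene. Lhx6, which marks interneuron precursors from the medial ganglionic eminence, had 0 UMIs. Only 0.0448 Lhx6 UMIs were expected, so that this count cannot tell a low level from an unchanged one.

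Of 17 genes of the preoptic area and hypothalamus, 5 were measured, 1 of which (Dbx1) was at least 2-fold higher and 1 (Six6) at least 2-fold lower, with a median log2 ratio of -0.03, and 9, among them Rax, Nkx2-4, Nkx2-2, Otp, Sim1, Foxd1, Hmx2 and Hmx3, had 0 UMIs in the 196 cells. Six3, a factor of the anterior forebrain, was at 131 CPM against 80.4 (ratio 1.62, 1.45 to 1.81), while its relative Six6 had 1 UMI (ratio 0.0551).

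Dbx1, which is central to the study, was among the highest ratios. This homeobox gene (chromosome 7, 49631499 to 49636849, minus strand) had 76 UMIs in 46 of the 196 cells (23.5%, interval 17.7 to 30.0%), with up to 5 in 1 cell. The other progenitors held it in 6.29% and the reference in 2.65% of cells, and after thinning the shares were 19.1%, 4.02% and 0.699%. Its level was 28.8 CPM against 5.64 (ratio 5.10, 3.92 to 6.57). Among the progenitors with Nkx2-1 that another limit had left out, it was found in 26.3%, so that a Dbx1 signal went with Nkx2-1 outside the 196 cells as well. Pcdh8, a delta-protocadherin, was found in 9.18% of the cells, 9.75% of the other progenitors and 1.99% of the reference, with a ratio of 0.947 (0.581 to 1.46). Both Dbx1 and Pcdh8 were found in 3 cells, of 46 with Dbx1 and 18 with Pcdh8.

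The related adhesion genes were lower or close to equality. Pcdh9 had a ratio of 0.343 (0.182 to 0.590) from 13 UMIs, Pcdh19 0.459 (0.334 to 0.617) from 45 UMIs and the classical cadherin Cdh2 0.901 (0.816 to 0.994). Pcdh19 came within 2-fold after thinning (0.508), in the cells with YFP (0.525) and in the vesicle (0.526). Of 11 measured cadherins and delta-protocadherins, 1 was at least 2-fold higher, Cdh13 (3.101, 2.084 to 4.482), and 4 were at least 2-fold lower, with a median log2 ratio of -0.42. Among 14 guidance genes, 2 were at least 2-fold higher (Ntn1 and Ephb1) and 6 at least 2-fold lower, with a median log2 ratio of -0.78. The receptor Epha5 had 2 UMIs (ratio 0.0623) and the ligand Efnb1 was at 77.2 CPM against 166 (ratio 0.464, 0.402 to 0.533). In the cells without YFP, Efnb1 came within 2-fold, and 1 of 8 measured guidance genes was at least 2-fold lower, beside 3.8% of all 6479 genes tested there.

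In the FGF list, where Fgf8 and Fgf17 were limited by the rule, 2 of 12 other measured genes were at least 2-fold higher (Fgf3 and Fgf15) and 1 at least 2-fold lower (Fgf18, 0.147). Fgf15, an FGF ligand of ventral and midline forebrain, was at 286 CPM against 100 (ratio 2.86, 2.64 to 3.08) and was found in 82.7% of the cells, 45.7% of the others and 12.6% of the reference. The feedback genes Dusp6 (0.761), Etv4 (0.729) and Etv5 (0.702) were below equality by less than 2-fold, while the intervals of Spry1 (0.891, 0.787 to 1.01) and Spry2 (1.08, 0.845 to 1.36) held equality. Spry4, with 12 UMIs and below the minimum, had a ratio of 2.53 (1.27 to 4.62). The 5 Zic genes, zinc finger factors of the medial forebrain, had a median log2 ratio of -0.53. Zic1 (388 CPM, ratio 1.09, 1.02 to 1.16) and Zic4 (231 CPM, ratio 1.13, 1.04 to 1.23) were close to equality, and Zic2 (0.448) and Zic5 (0.691) were lower. Zic2 came within 2-fold after thinning and in the cells with YFP.

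The cell cycle lists were level. All 25 S phase genes and all 25 genes of G2 and mitosis stayed within 2-fold, with median log2 ratios of -0.02 and 0.01. Of 10 D cyclins and cell cycle exit genes, 1 was at least 2-fold higher and 3 were at least 2-fold lower, or 2 when only cells with at least 2 Nkx2-1 UMIs were kept. Cdkn1c, an inhibitor of cyclin-dependent kinases, was at 644 CPM against 301 (ratio 2.14, 2.03 to 2.25), and Ccnd1, a D cyclin, at 727 CPM against 425 (ratio 1.71, 1.63 to 1.79). Ccnd2 had a ratio of 0.644, Gadd45g 0.476 and Cdkn2c 0.285. Gadd45g came within 2-fold after thinning (0.548), with at least 2 Nkx2-1 UMIs (0.519) and in the cells with YFP (0.548). In the Notch list, 0 of 12 measured genes were at least 2-fold higher and 1 at least 2-fold lower (the ligand Jag1, 2 UMIs, ratio 0.156), with a median log2 ratio of 0.21. The effector Hes5 had a ratio of 2.11, but it is one of the genes summed in A.

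Markers of other cell types were counted in the 196 cells. Markers of GABAergic neurons summed to 21.6 CPM against 13.0, most of it Isl1 (15.9 CPM), and 3 of 9, Dlx6, Lhx6 and Slc32a1, were at 0. Those of glutamatergic neurons summed to 5.68 CPM against 15.3 (2 of 6 at 0, Slc17a7 and Bhlhe22), of basal progenitors to 17.0 against 134 (most abundant Neurog2, 0 of 5 at 0), and of Cajal-Retzius cells to 53.4 against 56.7 (most abundant Lhx5, 1 of 7 at 0). All 5 eye markers were at 0, against a sum of 6.96 CPM in the other progenitors. Sox10 was the one of 4 oligodendrocyte precursor markers with a UMI (0.379 CPM, against 1.60 for the 4 summed). None of the eye and oligodendrocyte precursor markers reached the 10 expected UMIs of a measured gene. Choroid plexus markers summed to 4.16 CPM against 14.2, with Ttr at 0. Markers of macrophages (1.51 CPM against 16.02), mesenchyme (9.84 against 61.0, Lum and Col1a2 at 0) and red cells (6587 against 17478, most abundant Hbb-y) were lower, and endothelial markers were 8.71 against 9.05 CPM with Cldn5, Cdh5 and Emcn at 0. The neuronal genes of N summed to 689 CPM in the 196 cells and 560 in the other progenitors. The comparison group held 112 of the non-neural cells and the 196 cells held 1, with 51.3% globin UMIs. Without them, 100 of 9859 genes tested were at least 2-fold higher (1.01%) and 294 lower (2.98%). Hbb-bs, which was among the 15 lowest genes with a ratio of 0.0621, then came to 1.06. Lum and Col1a2, mesenchyme markers among the same 15 genes, had 0 UMIs in the 196 cells (at least 13.4-fold and 10.2-fold lower at a floor of 3 counts in the 196 cells, with the non-neural cells in the comparison group). Without the non-neural cells both fell below the 10 expected UMIs of a measured gene, with 51 and 189 UMIs left in the other progenitors. The homeobox gene Otx1 (14 UMIs, ratio 0.0961, 0.0525 to 0.161) and Lrrc4c, a netrin-G ligand (0 UMIs, at least 8.30-fold lower at the same floor and 8.55-fold without the non-neural cells), also belonged to these 15.

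Neighbouring progenitors gave a sharper comparison, in 3 groups without any Nkx2-1 UMI: 1006 cells with over 2 UMIs of Fgf8 and Fgf17, and, with at most 2 of those UMIs, 283 with Gsx2 and without Emx1 and 1263 with Emx1 and without Gsx2, with median depths of 13661, 13652 and 15362 UMIs. Against the Fgf8/Fgf17 cells, 114 of 10060 genes were at least 2-fold higher (1.13%) and 467 at least 2-fold lower (4.64%). Against the Gsx2 cells the numbers were 235 (2.42%) and 156 (1.61%) of 9713, and against the Emx1 cells 262 (2.68%) and 359 (3.68%) of 9763. Mbip was high against each of them, with ratios of 7.62 (6.86 to 8.48), 8.37 (7.05 to 9.99) and 10.0 (9.05 to 11.2). Dbx1 was also high against each, with ratios of 3.78 (2.79 to 5.09), 17.6 (8.16 to 45.4) and 13.5 (9.24 to 20.02), and so was Ptch1, with 3.14 (2.48 to 3.94), 3.25 (2.36 to 4.52) and 12.8 (9.47 to 17.3). Pax6 and Gas1 were low against each, Gas1 with ratios of 0.168, 0.370 and 0.0679. The 278 Nkx2-1 progenitors that the rule left out are in none of these groups. They held Mbip in 79.1%, Dbx1 in 26.3% and Ptch1 in 36.0% of cells, against 92.3, 23.5 and 35.7% of the 196 cells. Pax6 was found in 34.9% and Gas1 in 58.6% of them, against 9.69 and 35.2%.

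Other genes set the 196 cells apart from only some of the groups without Nkx2-1. Slit2, though a marker of the group, was at 65.1 CPM and at 67.5 CPM in the Fgf8/Fgf17 cells (ratio 0.964, 0.816 to 1.13), while its ratios to the Gsx2 and Emx1 cells were 7.36 and 4.10. Otx2 was also level with the Fgf8/Fgf17 cells (ratio 1.06, 0.962 to 1.17) and above the Gsx2 (1.68) and Emx1 cells (5.76). Zic4 was below the Fgf8/Fgf17 cells (0.645, 0.592 to 0.701) and above the Gsx2 (1.41, 1.26 to 1.57) and Emx1 cells (2.06, 1.88 to 2.25). Apela and Isl1, a LIM homeobox factor, were shared with the Gsx2 cells instead: Apela had ratios of 9.17, 1.44 and 16.3, and Isl1 of 4.94, 0.875 and 4.61. Of the hem, Wnt and BMP genes, 13 of 16 were at least 2-fold lower and 0 higher against the Fgf8/Fgf17 cells, 14 of 18 lower and 1 higher against the Emx1 cells, and 3 of 12 lower and 4 higher against the Gsx2 cells.

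**Figure D3:**
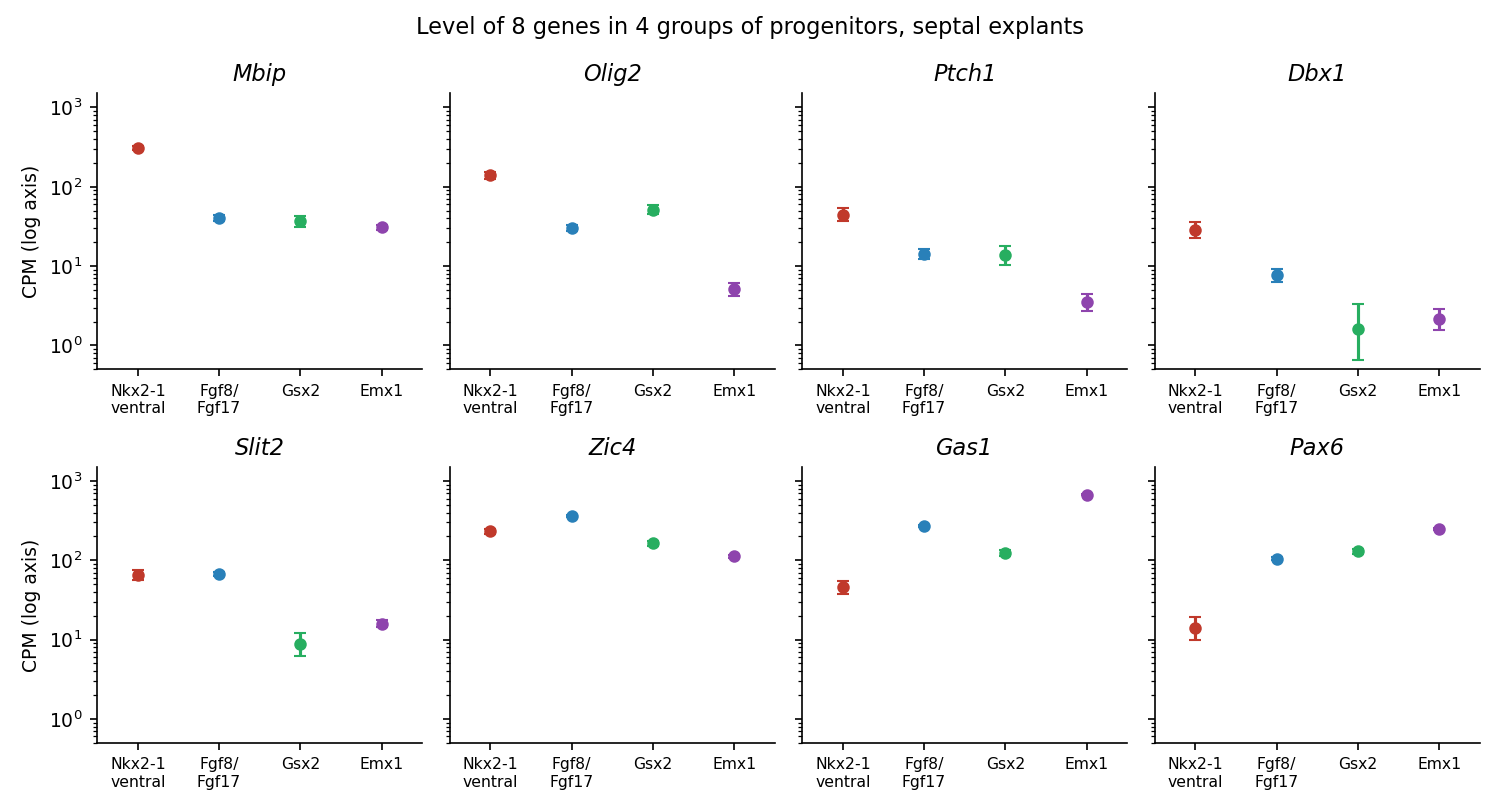
Level of 8 genes in CPM on a log y axis, in the 196 Nkx2-1 ventral progenitors and in 3 groups of progenitors without Nkx2-1 UMIs (1006 Fgf8/Fgf17 cells, 283 Gsx2 cells, 1263 Emx1 cells), with exact Poisson 95% intervals. Mbip, Olig2, Ptch1 and Dbx1 were highest in the Nkx2-1 cells, Slit2 was level with the Fgf8/Fgf17 cells, and Gas1 and Pax6 were lowest in the Nkx2-1 cells.

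The reporters gave the only view of age and line. YFP was found in 147 of the 196 cells (75.0%, interval 68.3 to 80.9%) in 70.1% of the other progenitors and in 90.7% of the reference (71.0, 66.0 and 83.2% after thinning). tdTomato was found in 18 cells (9.18%, interval 5.53 to 14.1%), in 6.18% of the other progenitors and in 4.64% of the reference. After thinning the shares were 7.65% (4.245 to 12.503%), 3.68% and 1.40%, and at 2 or more UMIs they were 6.12% in the cells and 1.52% in the other progenitors. A cell of one embryo can carry 1 of the reporters, yet 5 cells held both, which is 3.40% of those with YFP. tdTomato was found in 26.5% of the 49 cells without YFP (interval 14.9 to 41.1%), and 36 cells held neither reporter. Among the 18 tdTomato cells, 7 held a Dbx1 UMI, and 32 of the 46 Dbx1 cells held YFP. The added Cre sequence was at 0 in the 196 cells and in 0.277% of the others.

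Olig2 was found in 71.4% of the cells with YFP and 75.5% of those without, and Ptch1 in 36.1 and 34.7%. Mbip was found in 91.8 and 93.9%, but its level was 331 CPM with YFP (interval 306 to 358) and 243 without (208 to 283). Shh was found in 8 of 147 cells with YFP (5.44%) and 0 of 49 without (interval 0 to 7.25%). Slit2 was at 73.5 CPM with YFP (interval 61.9 to 86.5) and 41.7 without (27.9 to 59.9), and Fgf15 at 256 (234 to 279) and 370 (326 to 418). With only cells that held no YFP on both sides, 32 of 6479 genes tested were at least 2-fold higher (0.494%) and 246 lower (3.8%).

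Within the group, genes differed with the number of Nkx2-1 UMIs. The cells held 1 Nkx2-1 UMI in 26 cases, 2 in 20 and 3 or more in 150, at median depths of 13580.5, 10302 and 12123 UMIs, with the deepest cells at 1 UMI. Slit2 was found in 11.54, 10.0 and 49.3% of these cells, and Mbip in 80.8, 80.0 and 96.0%. Olig2 went from 57.7 to 65 and 76.0%, with overlapping intervals. Some genes of other territories were found most often in the cells with 1 UMI. Pax6 was found in 30.8% of them against 5.0 and 6.67%, and Emx2 in 69.2% against 4 of 20 cells and 27.3%. Gas1 was found in 69.2% against 35.0 and 29.3%, and Gsx2 in 30.8% against 10.0 and 9.33%. The interval of Emx2 at 1 UMI was clear of both others, those of Pax6 and Gas1 overlapped with 2 UMIs, and that of Gsx2 with both. These genes were no fixed list, and Rspo1, of the hem, Wnt and BMP list, was found in 38.5, 30.0 and 36.7%. All 8 Shh cells were among those with 3 or more. Nkx2-1 itself was found in 2.65% of the 151 reference cells (interval 0.726 to 6.64%), and at 2 or more UMIs in 0.662%. Whether free RNA accounts for any of the cells with 1 Nkx2-1 UMI was not tested. Without the cells with 1 UMI, 170 cells remained, and Mbip came to a ratio of 7.11. Of 9619 genes then tested, 110 were at least 2-fold higher (1.14%) and 353 lower (3.67%).

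**Figure D4:**
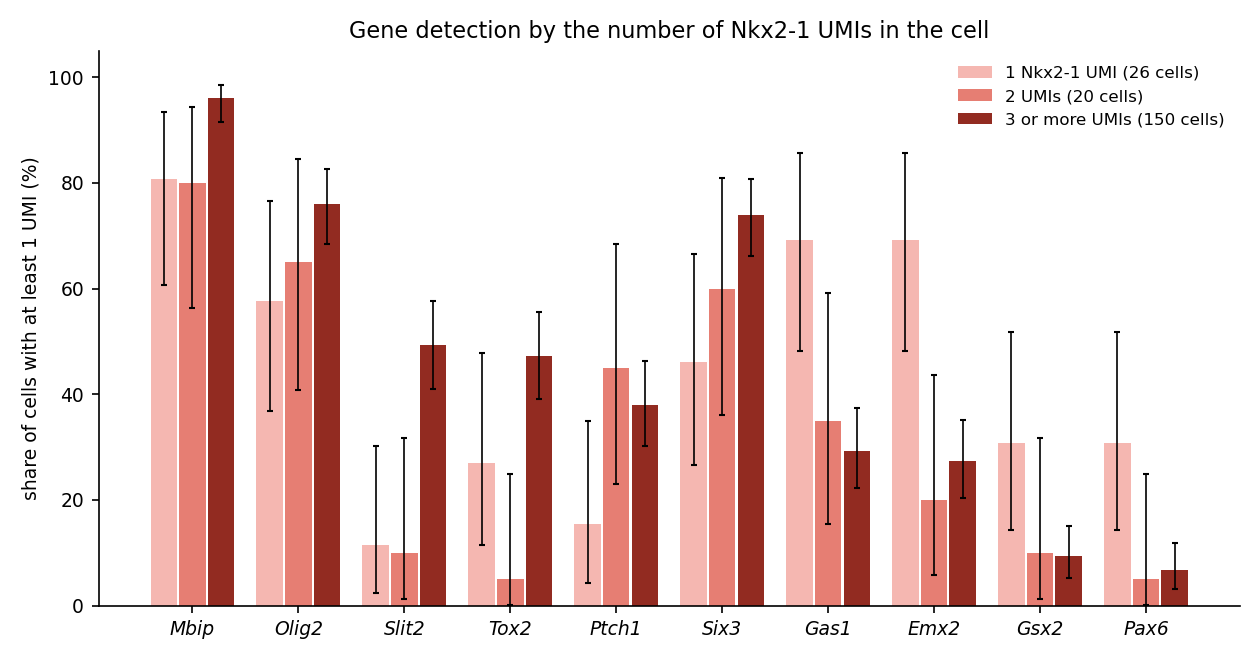
Share of cells with at least 1 UMI of 10 genes, on a linear y axis in percent, for members with 1 (26 cells), 2 (20 cells) or 3 or more (150 cells) Nkx2-1 UMIs, with exact Clopper-Pearson 95% intervals. Slit2 and Tox2 were found most often at 3 or more UMIs, and Gas1, Emx2, Gsx2 and Pax6 most often at 1 UMI.

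Cells with and without Slit2, and with and without Dbx1, differed in other genes, in divisions made after the values had been seen. The 79 cells with Slit2 (median 11860 UMIs, against 12720 without) held more Nkx2-1 (733 CPM against 376 in 116 cells without Slit2, ratio 1.95, 1.75 to 2.17), Six3 (ratio 2.15, 1.72 to 2.68) and Igfbp5, which binds insulin-like growth factors (5.69, 3.12 to 11.1), and less Gsx2 (0.207), Sfrp1, a secreted Wnt antagonist (0.423), Dbx1 (0.418, 0.228 to 0.726) and Emx2 (0.441). All 8 Shh cells held Slit2. The 46 cells with Dbx1 held more of the Notch ligand Dll3 (ratio 3.15, 1.70 to 5.84) and of the Hes-family gene Hes6 (1.734, 1.430 to 2.097), and less Hes5 (0.547, 0.448 to 0.664), Fabp7 (0.555) and Slit2 (0.466, 0.286 to 0.726). The 1 cell rich in globin was left out of these ratios. Hes5 and Fabp7 are summed in A and Nkx2-1 was set by the rule, so that their ratios are a description. The genes named were picked from the ends of 6381 genes compared for Slit2 and 6304 for Dbx1, and nothing was tested. Slit2 was found in 14 of 46 cells with Dbx1 (30.4%, interval 17.7 to 45.8%) and in 43.3% of 150 cells without (35.3 to 51.7%), which overlap.

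Clustering of the 196 cells without the rule genes, reporters and the listed S phase and mitosis genes still gave sub-clusters led by cell cycle genes. There were 4, which are left without names. The first (32 cells) was led by Hist1h2bc, Knstrn, Cenpa, Cdkn3 and Cdc20, the third (33 cells) by Ccne2, Tcf19, Cdc45, Cdc6 and Ung, and the fourth (66 cells) by Prc1, Ube2c, Pif1, Nusap1 and Aurka, most of them known from DNA replication or mitosis. The second (65 cells) was led by Gadd45g, Dll1, Rgs16, Cdkn1c and Cdk5r1, of which Dll1 is a Notch ligand of differentiating progenitors and Cdkn1c a cell cycle inhibitor. Median depths were 9526, 10183, 13592 and 16157 UMIs in this order. Olig2 was found in 84.4, 56.9, 63.6 and 86.4% of their cells, Slit2 in 31.3, 40, 24.2 and 53.0% and Dbx1 in 18.8, 30.8, 18.2 and 21.2%, and whether depth has a part in these shares was not tested.

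In the telencephalic vesicle the same rule kept 1248 cells, set against 7278 other progenitors of that library. Of 15179 genes tested there, 155 were at least 2-fold higher (1.02%) and 785 at least 2-fold lower (5.17%). Of the genes called high in the septal explants, 98 of 101 were among the 9525 genes tested in both. In the vesicle, 22 of them were also at least 2-fold higher, which is 22.4% of the 98 and 75.9% of the 29 genes so called there among those tested in both, and 90 were above equality. Of 326 genes called low, 149 were at least 2-fold lower, 45.7% of the 326 and 72.3% of 206, and 303 were below equality. Among all 9525 genes tested in both, 29 (0.304%) were at least 2-fold higher and 206 (2.16%) at least 2-fold lower in the vesicle, and 48.9% were above and 51.1% below equality there. The rule fixes part of this in both libraries, and levels were not compared between them.

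Ratios of single genes in the vesicle are given for genes named above, most of them chosen for their values in the explants. Mbip had a ratio of 3.63 (3.49 to 3.77), Tox2 of 2.92 (2.80 to 3.06), Olig2 of 4.09 (3.88 to 4.31) and Ptch1 of 2.34 (2.26 to 2.42). Pax6 (0.279), Cdon (0.264) and Gas1 (0.189) were all low there too. Dbx1 had a ratio of 1.54 (1.27 to 1.86) against 5.10 in the explants. Of 57 measured genes that were past 2-fold in the explants and were compared, 34 stayed past 2-fold in the vesicle and 23 did not. Besides Dbx1, the 23 included Fgf3, Fgf15, Fndc3c1, Gse1, Cdkn1c, Nnat, Cdh13 and Pcdh9. Zic1 had 0.721 (0.691 to 0.751) and Zic4 0.509 (0.475 to 0.544) in the vesicle, against 1.09 and 1.13 in the explants. Differences between the libraries were not tested, and dissection, kit version and software version go together with them.

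**Figure D5:**
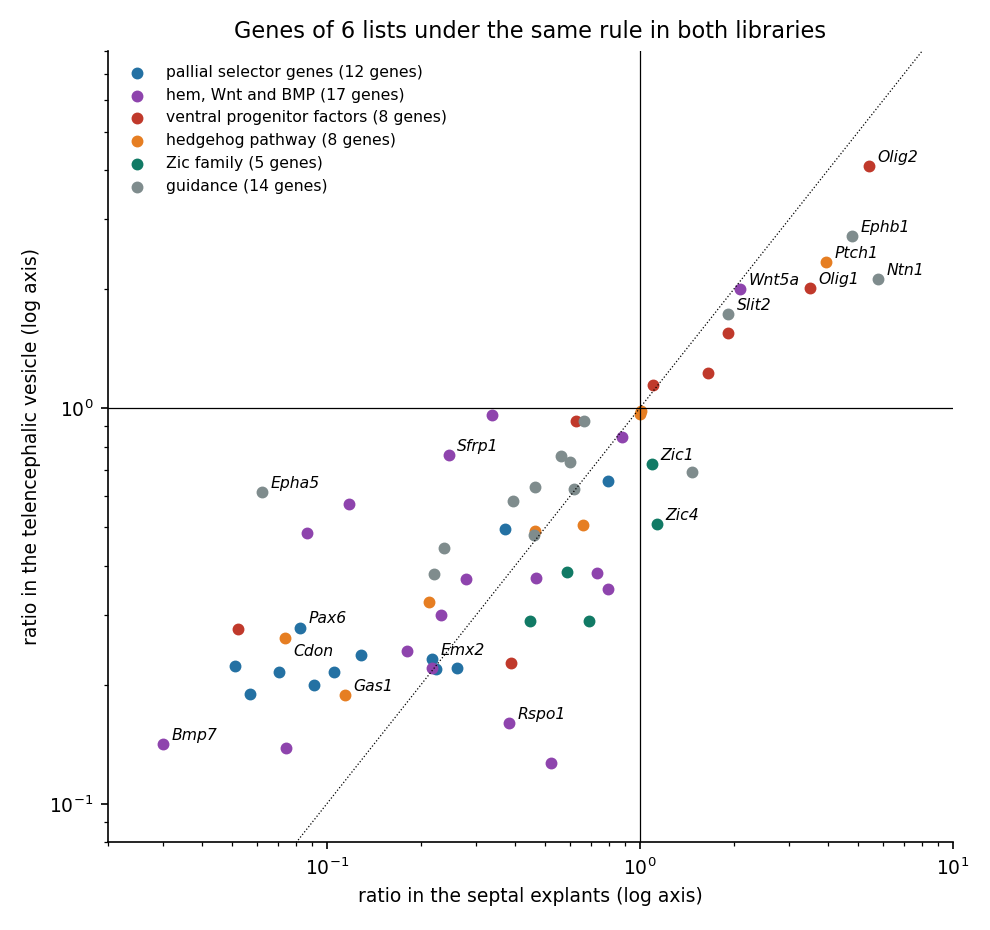
Ratio of CPM in the cells chosen by the rule over the other progenitors of the same library, septal explants on the x axis and telencephalic vesicle on the y axis (both log), for measured genes of 6 lists. Solid lines mark equality and the dotted line equal ratios, and Zic1 and Zic4 lie right of equality in the explants and below it in the vesicle.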

How the data were processed

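The authors deposited raw counts for both libraries, the UMIs of each gene in each barcode, not normalised. The submitters' processing notes name Cell Ranger 2.1.1 for the septal explants and 7.1.0 for the telencephalic vesicle, both with mm10; the septal gene list also holds the YFP, tdTomato and Cre sequences. The paper's methods give default parameters for Cell Ranger 2.1.1. Whether intronic reads were counted is not spelled out for either library in the sources used here. Comparison columns of the authors were not in the files, and 0 sample columns were left unused.

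The members and gene lists were chosen with earlier results of these data known. Counts were summed over cells, scaled to CPM and compared as ratios with exact conditional intervals for 2 Poisson counts. A gene was tested, or measured, with at least 10 UMIs expected in the members, and 19 genes used by the rule were left out of the counts, as were mitochondrial genes. A gene with 0 UMIs counted as lower and was set at 3 counts for list medians. Genes were named by a fixed rule: rule and marker genes, the 15 with the interval bound farthest on each side, up to 4 per list, 5 leading genes per sub-cluster and the genes of the study. Sub-clusters used Leiden at a resolution of 0.6 on 20 principal components of 1500 variable genes, without mitochondrial and sex-specific genes. Doublets were kept in the main values. Near-identical genes such as the globin pairs may share reads. The functions were tested on simulated counts. The work was done in Python 3.11.15, with scanpy 1.11.5 and igraph 0.11.9 for clustering, scipy 1.17.1 for intervals, pandas 2.3.3 and numpy 2.4.6 for sums, and matplotlib 3.10.9 for plots. Gene positions came from GENCODE M21 on GRCm38. Some genes of the lists count in the totals but are not reported here by name.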

Additional observations from a re-analysis of the deposited data

Results flagged for a closer look

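In 7 of the genes named in the text with at least 10 UMIs expected in both libraries, the ratio lay on opposite sides of equality in the septal explants and the telencephalic vesicle, with both intervals clear of it, and the difference between the libraries was not tested. Zic4 had a ratio of 1.13 in the explants (1.04 to 1.23) and 0.509 in the vesicle (0.475 to 0.544), where it was at 47.3 CPM in the cells of the rule and 93.0 CPM in the others. Zic1 had 1.09 (1.02 to 1.16) and 0.721 (0.691 to 0.751). Isl1 had 2.50 (1.77 to 3.45) and 0.605 (0.483 to 0.750), and Igfbp5 had 0.640 (0.496 to 0.813) and 1.68 (1.60 to 1.77). Jag1 had 0.156 (0.0188 to 0.570) from 2 UMIs in the explants and 1.118 (1.002 to 1.245) in the vesicle. The S phase genes Mcm3 and Rrm1 had 0.822 (0.740 to 0.912) and 0.835 (0.756 to 0.920) in the explants and 1.13 (1.09 to 1.18) and 1.07 (1.03 to 1.10) in the vesicle.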

How the results depend on the processing

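The number of members was 192 with the mitochondrial limit at 3 MAD, 196 without barcodes marked by Scrublet, 170 with at least 2 Nkx2-1 UMIs, 176 with A over 2 times N, and 203 when cells were thinned first, of which 163 were the same cells. With at least 30 UMIs expected, 32 of 7170 genes tested were at least 2-fold higher (0.446%) and 141 lower (1.97%). With at least 1 expected, the numbers were 476 (3.53%) and 1287 (9.53%) of 13500. With only cells that held no YFP, 32 of 6479 were higher (0.494%) and 246 lower (3.8%). Under the other settings the counts ranged from 71 to 123 higher (0.841 to 1.24% of the genes tested) and from 264 to 353 lower (2.98 to 3.67%). YFP was found in 64.3% of the cells and 62.2% of the others at 2 or more UMIs, and in 66.0% of the others after thinning, and tdTomato in 6.12% of the cells and 1.52% of the others at 2 or more UMIs, and in 7.65% and 3.68% after thinning. The sub-clusters numbered 2 at a resolution of 0.3 and 6 at 1. The ratio of Hbb-bs came to 1.06 without non-neural and globin-rich cells. Of 57 measured genes with UMIs in the cells that were compared across settings and were past 2-fold, within 2-fold were Pcdh19, Gadd45g and Zic2 after thinning and with only YFP cells, Wnt5a after thinning and with only cells without YFP, Efnb1 with only cells without YFP, Nfia with only YFP cells, at 2 or more Nkx2-1 UMIs and with A over 2 times N, Gadd45g at 2 or more Nkx2-1 UMIs, Hbb-bs without the non-neural cells, and 23 in the vesicle. There the ratio of Isl1 was 0.605, of Jag1 1.118 and of Lhx8, from few UMIs in the explants, 0.665. Shh had 0 UMIs in the cells without YFP, a ratio of 0. The causes were not tested. Leaving out non-neural cells and the other resolutions were chosen after seeing the data.

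Scrublet marked 53 of 5827 barcodes (0.910%), 0 of them members. One library bounds every value: intervals cover counting error, and spread between embryos is unknown. No paired analysis was possible because each condition has 1 library and no test was made. At this depth, genes under 10 expected UMIs were not ranked.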

Other observations

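The counts of other gene groups stand beside those of all genes tested, of which 1.02% were at least 2-fold higher and 3.35% at least 2-fold lower. Of 14 glycolysis and hypoxia genes, 0 were at least 2-fold higher and 1 was at least 2-fold lower in the 196 cells, with a median log2 ratio of -0.35. The lower gene was Bnip3, a mitophagy receptor (0.466, 0.347 to 0.613), and the glucose transporter Slc2a1 (0.501, 0.417 to 0.598), the glycolytic enzymes Eno1 (0.675) and Ldha (0.780) were below equality, while Gapdh was at 0.997. Among 14 genes of developmental stage and radial glia onset, 0 were at least 2-fold higher and 3 lower (Pax6, Aldoc at 0.124 and Nfia at 0.497), and the heterochronic gene Hmga2 was at 0.573 (0.519 to 0.632). Nfia came within 2-fold with at least 2 Nkx2-1 UMIs, with A over 2 times N and in the cells with YFP. In the cells without YFP, 5 of 13 genes of this list were at least 2-fold lower, beside 3.8% of all 6479 genes tested there. All 7 Sox genes stayed within 2-fold, with Sox1 the highest (1.98, 1.71 to 2.29) and Sox6 the lowest (0.545, 0.396 to 0.732). With at least 2 Nkx2-1 UMIs, against progenitors without Nkx2-1, and in the cells with YFP, 1 Sox gene was at least 2-fold higher. Of all genes tested under these settings, 1.14, 1.24 and 1.12% were. In the cells without YFP, 1 was at least 2-fold lower. Immediate early and heat shock genes, which can mark dissociation, had 0 of 10 past 2-fold, with Fos at 1.498 (1.28 to 1.74). The imprinted gene Nnat, a small membrane proteolipid, was at a ratio of 2.21 (2.17 to 2.26).

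Among cells with YFP the transcript of the Rosa26 locus, Gt(ROSA)26Sor, was at 27.1 CPM, against 73.4 in cells without (ratio 0.370, 0.247 to 0.556). It was picked from the low end of 6381 genes compared after the values had been seen. Other genes at the ends were Gm10709 (12.8) and Xist (1.88, 1.65 to 2.13), higher with YFP, and Gm10116 (0.215) and Rps2 (0.560), lower. The causes were not tested.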
